A study of Mus musculus with 5 samples.

Results

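Gm and Rik symbols are the provisional names of mouse genes that carry no function-based name yet, and the peaks described here are the wide CUT&RUN peaks assigned to such symbols. A peak was taken where its symbol was Gm followed by digits or ended in Rik and where its width, end minus start, was 1000 bp or more. That rule gave 3218 of the 85275 peaks in the table, at 2452 symbols, with 2505 peaks at Gm symbols and 713 at Rik symbols. Without the width limit there were 24599 Gm and Rik peaks. No measured level entered the choice.

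The study profiled neonatal mouse cardiomyocytes by CUT&RUN, in which an antibody directs a nuclease to cut out and release the chromatin around its target. The knockdown cells had received Kdm5b-ShRNA-IL, a short hairpin RNA against Kdm5b, and the control cells Control-ShRNA-IL, with chromatin taken at 72 h. There were 2 Kdm5b knockdown libraries, 2 control libraries and 1 negative control library made from control-treated cells. The labels name the enriched target H3K4 and not its methylation state, place the cells at postnatal day 1 in the study's description and give cell labels that differ from sample to sample, and do not say whether a group's 2 libraries were grown as separate cultures. The p-values below therefore measure the spread between libraries, which may be technical. The columns of each group are called libraries 3 and 4 after their names.

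Lysine 4 of histone H3 is methylated around active and poised promoters and at enhancers, and wide peaks of the trimethylated form are a mark of strong, often CpG-rich promoters. Kdm5b is a demethylase that removes methyl groups from this residue. Gm symbols come from computer-predicted gene models and Rik symbols from RIKEN cDNA clones. Many of them are long non-coding RNAs, and many such RNAs start head to head with a protein-coding gene from a shared, divergent promoter.

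RefSeq types were found for 3204 of the 3218 peaks. They placed 2637 peaks at long non-coding RNAs, 309 at protein-coding genes, 103 at small nuclear RNA genes, 54 at small nucleolar RNA genes and 43 at transcribed pseudogenes. Most symbols were hit once, with 1950 of the 2452 holding a single wide peak. The most were 13 at 2310067E19Rik, over chr4:82222027-82399917 beside Nfib (GRCm39, as the deposited table gives positions), then 10 at Gm40451, 9 at Gm19417, and 6 each at Gm14010, Gm29834, Gm40103 and Gm52699. Nfib encodes a transcription factor of the nuclear factor I family, and the 13 peaks beside it had mean levels of 2.76 to 23.2 CPM over the 4 H3K4 libraries. The strongest Nfib peak had a mean of 544 CPM over the same libraries. The median width over all 3218 peaks was 1628 bp. The widest was 22410 bp at Gm39664. At the width limit, 2310067E19Rik, Gm23105 and 5430405H02Rik lay inside at 1000 bp. Gm30483 and Gm36507 lay outside at 999 bp and Gm11532 at 998 bp.

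The windows of 4 genes are shown that start head to head with a named gene, because the shared stretch between the starts is what makes such a pair. Each is the RefSeq window from 250 bases before to 50 bases after the start of the Gm or Rik gene, 5′ to 3′ on its own strand, in build GRCm38.p6. Capitals mark the bases from the partner's start to the gene's own start. The peaks are in GRCm39, and where a peak lies relative to these starts was not determined here. The windows are Gm20652 at chr3:88621056-88621355 on the minus strand, with Arhgef2 starting 54 bp away, Gm17501 at chr3:145649827-145650126 on the plus strand, with Ccn1 at 92 bp, 4933427D14Rik at chr11:72207433-72207732 on the minus strand, with Txndc17 at 72 bp, and Gm46280 at chr11:50325502-50325801 on the plus strand, with Canx at 79 bp.
Gm20652: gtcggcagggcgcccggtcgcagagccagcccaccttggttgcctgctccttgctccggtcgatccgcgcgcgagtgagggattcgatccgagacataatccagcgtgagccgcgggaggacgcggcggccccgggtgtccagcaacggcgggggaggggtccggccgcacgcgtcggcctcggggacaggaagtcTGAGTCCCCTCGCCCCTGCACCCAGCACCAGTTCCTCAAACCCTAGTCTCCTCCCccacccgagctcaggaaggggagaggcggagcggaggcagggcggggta
Gm17501: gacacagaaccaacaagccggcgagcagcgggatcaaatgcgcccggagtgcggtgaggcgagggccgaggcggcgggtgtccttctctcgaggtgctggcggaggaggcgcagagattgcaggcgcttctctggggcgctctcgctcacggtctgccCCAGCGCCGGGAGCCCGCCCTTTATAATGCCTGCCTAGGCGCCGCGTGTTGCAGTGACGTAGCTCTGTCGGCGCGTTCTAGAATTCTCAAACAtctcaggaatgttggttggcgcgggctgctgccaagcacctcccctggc
4933427D14Rik: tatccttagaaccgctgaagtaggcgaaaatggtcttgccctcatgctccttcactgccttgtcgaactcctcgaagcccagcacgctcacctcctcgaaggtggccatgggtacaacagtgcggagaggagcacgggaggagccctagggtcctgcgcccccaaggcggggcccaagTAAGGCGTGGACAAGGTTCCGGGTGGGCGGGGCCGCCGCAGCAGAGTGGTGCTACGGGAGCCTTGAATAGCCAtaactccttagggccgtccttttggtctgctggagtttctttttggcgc
Gm46280: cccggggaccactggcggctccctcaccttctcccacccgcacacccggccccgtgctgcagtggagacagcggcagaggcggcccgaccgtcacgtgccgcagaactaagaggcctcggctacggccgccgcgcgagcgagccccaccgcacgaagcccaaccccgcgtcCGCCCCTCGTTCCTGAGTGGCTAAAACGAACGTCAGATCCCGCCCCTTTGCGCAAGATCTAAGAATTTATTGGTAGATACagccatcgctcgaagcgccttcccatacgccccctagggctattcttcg
All 4 windows hold GGGCGG or its complement. The capitals of Gm17501 hold TTTATA, the complement of TATAAA, those of 4933427D14Rik hold TTCCGG, and those of Gm46280 hold ATTGG, the complement of CCAAT. The windows contain 32, 29, 18 and 33 CG dinucleotides in the order printed.

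A further pair of windows comes from the extremes of the knockdown comparison: Gm13293 had the largest called rise and 2900060B14Rik the largest called fall among peaks of at least 5 CPM. They lie at chr2:11339239-11339538 on the plus strand and at chr1:118459216-118459515 on the minus strand in GRCm38.p6. Capitals mark every CG dinucleotide, of which Gm13293 has 5 and 2900060B14Rik has 20. The called peaks as sets went the other way. Among symbols with 1 RefSeq start, the median count was 9 at the 23 whose strongest wide peak was called higher. It was 5 at the 65 whose strongest wide peak was called lower. Over all 1361 such symbols the median was 6, and over all 22862 RefSeq genes with 1 start it was 7. The count also went with the level against the negative control. Its medians were 4, 6, 16 and 19 from 2-fold or more below to 2-fold or more above, and called rises were mostly at strong peaks.
Gm13293: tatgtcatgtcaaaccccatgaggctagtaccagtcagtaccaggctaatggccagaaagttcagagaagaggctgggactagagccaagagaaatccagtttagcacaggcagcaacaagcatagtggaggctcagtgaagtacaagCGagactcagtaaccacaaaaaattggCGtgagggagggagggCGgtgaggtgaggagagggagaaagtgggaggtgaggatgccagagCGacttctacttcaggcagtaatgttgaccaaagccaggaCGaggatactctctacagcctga
2900060B14Rik: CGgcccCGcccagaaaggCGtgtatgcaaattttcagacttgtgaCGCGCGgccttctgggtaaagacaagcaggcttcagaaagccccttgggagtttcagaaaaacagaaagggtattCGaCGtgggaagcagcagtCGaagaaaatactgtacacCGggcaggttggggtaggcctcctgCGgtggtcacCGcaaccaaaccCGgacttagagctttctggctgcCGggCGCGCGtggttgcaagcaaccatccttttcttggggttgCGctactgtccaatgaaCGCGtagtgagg

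Reads in peaks numbered 21285387 and 31068085 in the knockdown libraries, 18710132 and 19001373 in the control libraries, and 3784381 in the negative control. A single read was worth 0.0470 and 0.0322 CPM in knockdown, 0.0534 and 0.0526 CPM in control and 0.264 CPM in the negative control, so 3 reads in the negative control, its floor, came to 0.793 CPM. Peaks under 500 bp took 5.64% and 3.65% of the knockdown reads, 6.66% and 5.80% of the control reads and 21.9% of the negative control's reads. Of the cardiomyocyte markers 7 of 8 had a peak. Their summed levels were 1348 and 1348 CPM in knockdown, 1427 and 1423 CPM in control and 1227 CPM in the negative control. Gata4 was the largest part of each sum. It had 579 and 596 CPM in knockdown, 583 and 569 CPM in control and 278 CPM in the negative control. Gata4 differed by 0.03, while all other measured markers of this list were lower in knockdown, and Myh6 (-0.20) and Ryr2 (-0.20) passed. Gata4 and Actn2 lay above the negative control in every H3K4 library, and Ryr2, Myl2 and Ttn below it. The 6 epicardial and mesothelial markers summed to 441 and 440.2 CPM in knockdown and 361 and 358 CPM in control, and the 6 fibroblast markers to 470.2 and 469 CPM in knockdown and 402 and 377 CPM in control. The 5 endothelial markers summed to 163 and 165 CPM in knockdown against 156 and 143 CPM in control, and the 4 smooth muscle markers to 244 and 248 CPM in knockdown against 213 and 200.04 CPM in control, a sum carried by Acta2 (0.31) and Tagln (0.32), while Myh11 (-0.10) and Cnn1 (-0.20) differed the other way without passing. In the negative control the epicardial and mesothelial list summed to 664 CPM, the fibroblast list to 511 CPM and the endothelial list to 250 CPM. Each of these sums was above that of every H3K4 library. The smooth muscle list summed to 185 CPM there, below every H3K4 library. Of the macrophage markers 2 of 4 had a peak, with a highest sum of 3.11 CPM in any H3K4 library, and of the erythroid markers 1 of 3. The part of cell type in the results below was not tested, and a change in the share of cells and a change in signal per cell cannot be told apart in bulk chromatin.

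Most wide peaks at Gm and Rik symbols were weak and did not exceed the negative control. Their median level was 8.67 and 8.21 CPM in knockdown, 9.73 and 9.05 CPM in control and 18.5 CPM in the negative control. The strongest reached 437 and 455 CPM in knockdown, 455 and 427 CPM in control and 235 CPM in the negative control. On the scale of log2(CPM + 1), the median ratio to the negative control was -1.08 in knockdown and -0.93 in control. The other 17181 peaks of 1000 bp or more had medians of 0.21 and 0.20. With 1 negative control library these ratios carry no test.

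A level 2-fold or more above the negative control was found at 226 Gm and Rik peaks in knockdown (7.02%) and at 199 in control (6.18%). Among the other wide peaks the shares were 21.6% in knockdown and 17.6% in control, and among all peaks 4.64% and 3.78%. A level 2-fold or more below the negative control was found at 53.7% of the Gm and Rik peaks in knockdown and 45.6% in control, against 29.2% and 24.7% of the other wide peaks and 76.2% and 65% of all peaks. Gm and Rik peaks supplied 7.58% and 7.66% of the knockdown reads, 7.71% and 7.69% of the control reads and 7.92% of the reads of the negative control.

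Width went with level. The 2091 peaks of 1 to under 2 kb had median levels of 5.63 CPM in knockdown and 6.42 CPM in control, and 19 (0.91%) and 14 (0.67%) of them lay 2-fold or more above the negative control, against 2.13% and 1.42% of other peaks of that width. The 966 peaks of 2 to under 5 kb had medians of 26.1 and 27.1 CPM, with 137 (14.2%) and 119 (12.3%) 2-fold or more above, against 30.7% and 24.5% of other peaks of that width. The 161 peaks of 5 kb or more had medians of 132 and 129 CPM, with 70 (43.5%) and 66 (41.0%) 2-fold or more above. Other peaks of that width gave 46.0% in knockdown and 40.7% in control. Gm and Rik peaks thus had lower shares than other peaks in both classes under 5 kb, and at 5 kb or more the shares were close. The width of a peak was set by the authors' peak calls on reads of this kind, so width and level are not independent measures. CPM counts reads over the whole peak and was not scaled to width, so a wider peak can collect more reads.

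**Figure D1:**
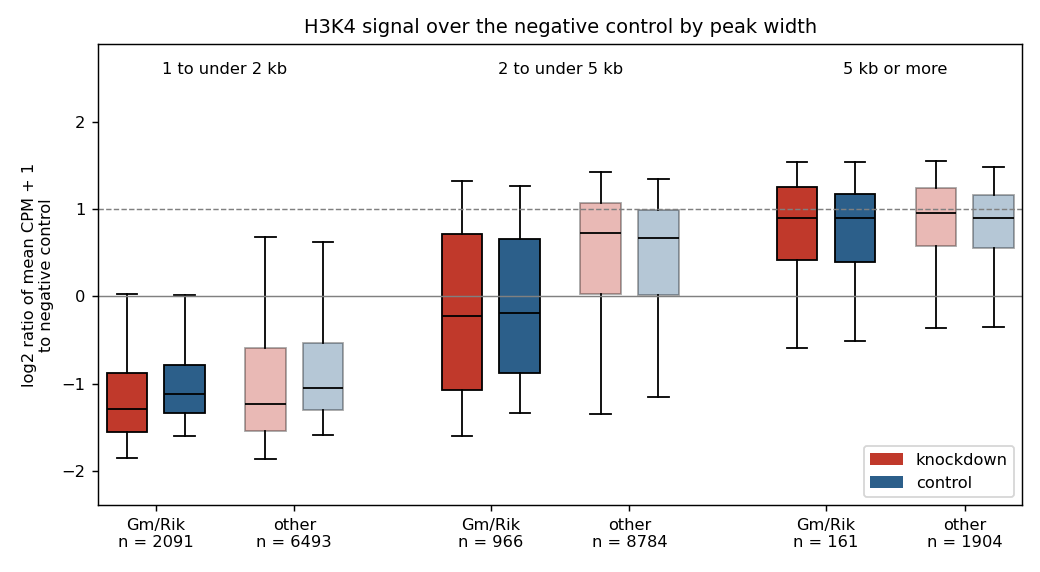
Log2 ratio of mean CPM + 1 to the negative control, by peak width, for Gm and Rik peaks (dark) and other peaks (pale), knockdown left of control. Boxes span the quartiles, lines are medians and whiskers run from the 5th to the 95th percentile, and the dashed line is 2-fold. The medians of Gm and Rik peaks are -1.29 and -1.12 in the narrowest class and 0.90 and 0.90 in the widest.

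Rik peaks stood higher than Gm peaks. The 713 Rik peaks had median levels of 13.2 CPM in knockdown and 14.2 CPM in control, and the 2505 Gm peaks had 7.80 and 8.70 CPM. At least 2-fold above the negative control were 100 Rik peaks (14.0%) in knockdown and 82 (11.5%) in control, and 126 Gm peaks (5.03%) in knockdown and 117 (4.67%) in control. Within 2 to under 5 kb the shares were 21.8% and 18.5% for Rik and 11.2% and 9.93% for Gm. At 5 kb or more they were 50% in knockdown and 39.7% in control for Rik and 39.8% and 41.7% for Gm, so the order turned in control. Peaks at protein-coding Gm and Rik genes had medians of 22.5 CPM in each group, with 56 of 309 (18.1%) in knockdown and 50 (16.2%) in control 2-fold or more above. Peaks at long non-coding RNAs had medians of 8.11 and 9.10 CPM, with 154 (5.84%) and 138 (5.23%).

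The strongest of all by CPM, which is not scaled to width, was the 15220 bp peak of Gm16141, a long non-coding RNA. It lies at chr11:18956776-18971996, with 437 and 455 CPM in knockdown, 404 and 400.4 CPM in control and 172 CPM in the negative control. Both knockdown libraries lay above both control libraries. The difference was 0.15 ± 0.03 (log2, SE) with an adjusted p of 0.0025 in limma. Its nearest named peak, 257 bp away, carries the symbol Meis1, a homeodomain transcription factor that is known in mouse heart as a regulator of cardiomyocyte cell-cycle exit. That Meis1 peak had 4.04 and 1.80 CPM in knockdown, 2.73 and 3.47 CPM in control and 10.6 CPM in the negative control. The strongest Meis1 peak lies at chr11:18975994-18977864. It had 37.5 and 45.1 CPM in knockdown, 48.2 and 49.2 CPM in control and 27.5 CPM in the negative control. Its difference of -0.24 ± 0.08 (log2, SE) did not pass in limma (adjusted p = 0.061).

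The second was Gm39664 at chr1:74061629-74084039, 746 bp from a peak of Tns1, which encodes a focal-adhesion protein. It had 388 and 415 CPM in knockdown, 455 and 427 CPM in control and 221 CPM in the negative control. Both knockdown libraries were below both control libraries, with a difference of -0.13 ± 0.03 (log2, SE) and an adjusted p of 0.0092 in limma. The sign of this difference turned under 2 other scalings, with 0.11 under median centring and 0.09 in DESeq2.

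Gm20652, whose start lies 54 bp from that of Arhgef2, had 319.7 and 319.7 CPM in knockdown, 337 and 339.8 CPM in control and 110.2 CPM in the negative control. 9530052E02Rik, 246 bp from a peak of the insulin signalling adaptor Irs2, had 303 and 315 CPM in knockdown, 323 and 332 CPM in control and 108 CPM in the negative control. Gm20346, typed as protein coding and 726 bp from a peak of Anp32a, had 319 and 336 CPM in knockdown, 289 and 314 CPM in control and 94.9 CPM in the negative control. Knockdown lay below control at Gm20652 and 9530052E02Rik and above it at Gm20346, and no adjusted p in limma passed 0.05 (0.24, 0.24 and 0.055). The sign at Gm20652 and 9530052E02Rik turned with TMM scaling, median centring and DESeq2. Gm38709, 1369 bp from a peak of the transcription factor gene Nfia, had 281 and 294 CPM in knockdown, 259 and 248 CPM in control and 123 CPM in the negative control, and its difference of 0.18 ± 0.04 (log2, SE) passed in limma (adjusted p = 0.0018). The other 4 of the 10 strongest, D830031N03Rik, B230303A05Rik, Gm17315 and 2310022B05Rik, had means of 262 to 294 CPM over the 4 H3K4 libraries, and none of their differences passed.

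The highest ratio to the negative control was at Gm36470 at chr5:3390317-3396400, which RefSeq places head to head with the cell-cycle kinase gene Cdk6, 334 bp between starts. It had 225 and 235 CPM in knockdown, 211 and 228 CPM in control and 59.2 CPM in the negative control, which is 3.84-fold and 3.66-fold above it on CPM + 1. The knockdown and control libraries overlapped. Gm39302, head to head with the choline transporter-like gene Slc44a2 at 88 bp, had 119 and 119 CPM in knockdown, 103 and 102 CPM in control and 31.4 CPM in the negative control. It rose by 0.22 ± 0.06 (log2, SE; adjusted p = 0.0084 in limma), and 1700034P13Rik, with 257.9 and 251.3 CPM in knockdown, 230.9 and 230.7 CPM in control and 70.3 CPM in the negative control, by 0.14 ± 0.04 (adjusted p = 0.032). The others of the 10 highest ratios were Gm9222, Gm52395, Gm40191, Gm20346, D130020L05Rik, Gm16618 and 1700001G11Rik, with no call.

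The 10 lowest ratios came from narrow peaks, with 10.6 to 74.0 CPM in the negative control. It was highest at Gm32915 and lowest at Gm15345. Gm32186 had 9.11 and 9.82 CPM in knockdown, 6.63 and 7.42 CPM in control and 44.9 CPM in the negative control. Gm4718 lay 177963 bp from its nearest named peak, at Six3. It had 13.5 and 12.6 CPM in knockdown, 17.6 and 15.7 CPM in control and 58.4 CPM in the negative control. A230070E04Rik, 38600 bp from a peak of the neurofilament gene Nefl, had 12.8 and 13.1 CPM in knockdown, 17.9 and 17.5 CPM in control and 63.2 CPM in the negative control, and fell by 0.42 on the log2 scale (SE 0.12, adjusted p = 0.021 in limma). The 10 lowest were all between 1010 and 1513 bp wide.

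The H3K4 level over the negative control went with the CpG content at the gene's start. For the 1361 symbols with 1 RefSeq start, observed over expected CpG in the 300-base window had a median of 0.238 where the strongest peak lay 2-fold or more below the negative control (556 symbols), 0.319 up to 2-fold below (430), 0.673 up to 2-fold above (255) and 0.736 at 2-fold or more above (120). The median over all 22862 RefSeq genes with 1 start was 0.374. The GGGCGG letters, searched on both strands, were in 14.0% of the lowest class and 52.5% of the highest, beside 35.2% of all RefSeq starts. TTCCGG, the core of ETS factor sites, was in 6.65% and 31.7%, beside 15.1% overall. TATAAA was in 15.8% and 6.67%, beside 14.8%, and CCAAT in 34.9% and 33.3%, beside 38.2%. These letters are matches only, GGGCGG and TTCCGG matches can overlap one another, and both become more frequent with GC content, whose median was 49.3% in the lowest class and 59.5% in the highest.

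**Figure D2:**
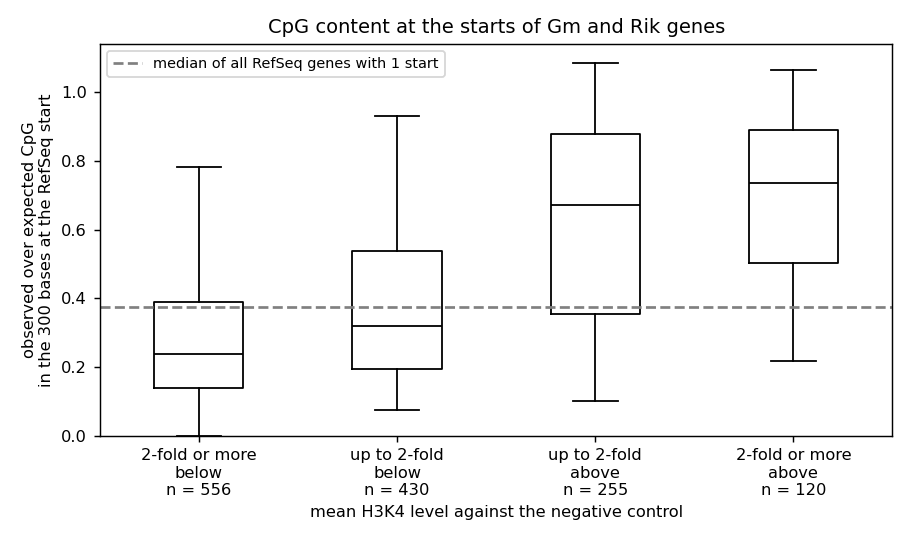
Observed over expected CpG in the 300 bases at the RefSeq start of Gm and Rik genes with 1 start, by the level of the gene's strongest wide peak against the negative control over the 4 H3K4 libraries. Boxes span the quartiles, lines are medians and whiskers run from the 5th to the 95th percentile. Medians are 0.238, 0.319, 0.673 and 0.736 from left to right, and the dashed line is the RefSeq median of 0.374.

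In the comparison of knockdown with control, limma called 51 Gm and Rik peaks higher, which is 1.58% of them, and 156 lower, which is 4.85%. All 3218 were tested. Over all 58072 tested peaks 1.33% were called higher and 1.63% lower, and over the other wide peaks 4.18% and 3.68%. The share called lower among Gm and Rik peaks was thus above both backgrounds, and the share called higher was close to that of all peaks and below that of other wide peaks. These backgrounds are not matched for width. At 1 to under 2 kb 3.35% were called lower, against 3.82% of other peaks of that width. At 2 to under 5 kb the shares were 7.25% and 3.40%, and at 5 kb or more 9.94% and 4.46%. Called higher were 0.19% against 0.62%, 2.59% against 5.02% and 13.7% against 12.4% in the same order. The median difference was -0.10 (log2) over Gm and Rik peaks, -0.14 over all tested peaks and 0.00 over other wide peaks. Both knockdown libraries lay above both control libraries at 481 Gm and Rik peaks, or 14.9% against 12.1% of all tested peaks and 29.5% of other wide peaks. They lay below both at 1265, or 39.3% against 35.4% and 27%.

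These calls depended on the scaling of the libraries and on single libraries. TMM scaling left 5 higher and 2 lower and DESeq2 5 higher and 0 lower, and without knockdown library 4 there were 10 and 25.

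The difference followed the level of a peak. Among Gm and Rik peaks with log2(mean CPM + 1) from 2 to 3, the median difference was -0.21 over 1245 peaks, and it was -0.12 from 3 to 4, -0.04 from 4 to 5, 0.02 from 5 to 6, 0.07 from 6 to 7 and 0.05 above 7. Over all tested peaks the same steps gave -0.19, -0.13, -0.03, 0.05, 0.07 and 0.06. From 2 upward the largest gap between the medians of Gm and Rik peaks and of all peaks was -0.03, from 5 to 6. Under 2, where only 50 of the Gm and Rik peaks lay, the medians were -0.32 and -0.24. The median of the negative control moved with width as the H3K4 level did, with 15.1 CPM at 1 to under 2 kb, 29.3 CPM at 2 to under 5 kb and 66.3 CPM at 5 kb or more.

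**Figure D3:**
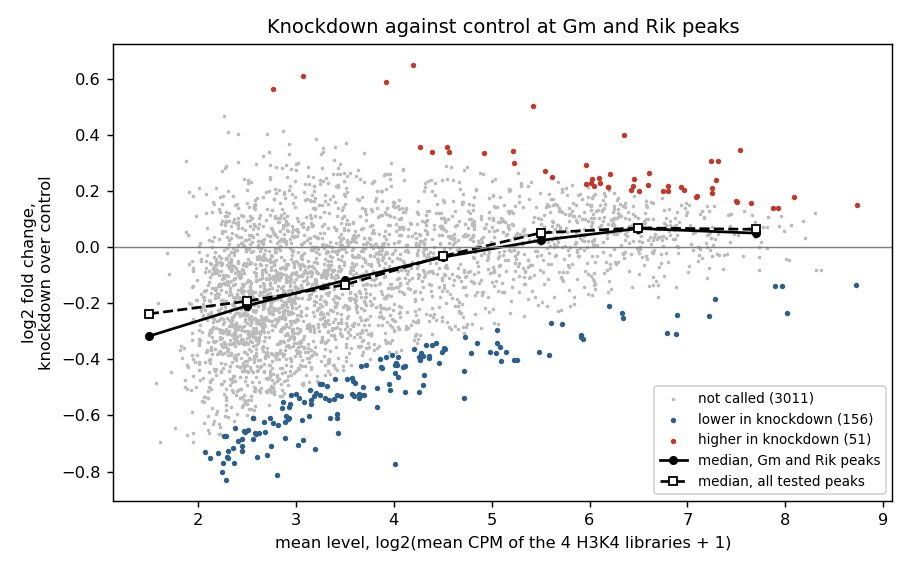
Log2 fold change, knockdown over control, of 3218 Gm and Rik peaks against log2(mean CPM + 1) of the 4 H3K4 libraries. Red points are the 51 called higher, blue the 156 called lower and grey the 3011 not called. The lines are medians per step of level, with -0.21 for Gm and Rik peaks and -0.19 for all tested peaks from 2 to 3, and 0.07 for each from 6 to 7.

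Called rises were mostly at strong peaks and called falls mostly at weak ones. Over all tested peaks the median difference also turned from negative to positive with level. The 51 higher peaks had medians of 91.9 CPM in knockdown and 79.0 CPM in control and a median width of 4269 bp, 40 of them lay above the negative control over the 4 H3K4 libraries, and 12 were at protein-coding genes. The 156 lower peaks, at 144 symbols, had medians of 9.09 and 13.2 CPM and a median width of 2142 bp, 143 of them lay below the negative control, and 7 were at protein-coding genes. Peaks not called, 3011 in all, had medians of 8.27 and 9.05 CPM and a median width of 1590 bp. Of the 309 peaks at protein-coding genes 3.88% were called higher and 2.27% lower, beside 4.18% and 3.68% of other wide peaks. Rises ran from 0.14 to 0.65 on the log2 scale with a median of 0.23, and 3 exceeded 1.5-fold. Falls ran from -0.83 to -0.13 with a median of -0.52, and 51 exceeded 1.5-fold. Of the peaks 2-fold or more above the negative control over the 4 H3K4 libraries, which are 6.59% of the Gm and Rik peaks and 19.7% of other wide peaks, 23 (10.8%) were called higher and 3 (1.42%) lower. Over all tested peaks that far above the negative control the shares were 8.77% and 0.333%.

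The largest called rise was at Gm13293, a long non-coding RNA at chr2:11343533-11346890. It had 21.9 and 20.7 CPM in knockdown, 14.6 and 11.9 CPM in control and 30.7 CPM in the negative control. The groups did not overlap, which the rule for naming the largest rises and falls required of each. Both groups stayed below the negative control. The difference was 0.65 ± 0.11 (log2, SE; adjusted p = 1.1e-05 in limma).

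C730002L08Rik, at chr19:20510873-20514282, had 18.3 and 16.2 CPM in knockdown, 11.4 and 10.8 CPM in control and 33.6 CPM in the negative control. It rose by 0.59 ± 0.12 (log2, SE; adjusted p = 0.00049 in limma). The nearest named peak, 63598 bp away, belonged to Aldh1a1, a retinaldehyde dehydrogenase gene expressed in the developing epicardium, and that peak rose by 0.44 (adjusted p = 2.0e-05). The epicardial and mesothelial marker list was also higher in knockdown, with a median difference of 0.42. Its summed level lay below that of the negative control in every H3K4 library, and its part in this rise was not tested.

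Gm36535, at chr5:111940445-111945459, had 49.3 and 49.2 CPM in knockdown, 39.2 and 30.3 CPM in control and 48.6 CPM in the negative control, a rise of 0.50 ± 0.08 (log2, SE; adjusted p = 5.4e-07 in limma). 4930412C18Rik, at chr4:9769449-9771764, had 40.6 and 40.9 CPM in knockdown, 32.9 and 31.0 CPM in control and 26.4 CPM in the negative control, a rise of 0.34 ± 0.08 (adjusted p = 0.0054). Its nearest named peak, 71491 bp away, was at Gdf6, which encodes a ligand of the bone morphogenetic protein family, and that peak rose by 0.26 (adjusted p = 0.00041). Gm47843 (0.61), Gm32345 (0.56), Gm51818 (0.36) and C130074G19Rik (0.36) also rose, at mean levels of 5.80 to 22.3 CPM and below the negative control in each H3K4 library.

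Of the 10 largest called rises, 9430053O09Rik had the lowest adjusted p. It lies at chr16:77295584-77304567 and had 216 and 198 CPM in knockdown, 164 and 161 CPM in control and 86.1 CPM in the negative control. All 4 H3K4 libraries exceeded the negative control and the groups did not overlap. It rose by 0.35 ± 0.05 (log2, SE; adjusted p = 4.7e-10 in limma). A peak of the microRNA gene Mir99a lay 3359 bp away. Of the 5 wide peaks of 9430053O09Rik 1 was called higher, and their median difference was 0.02, with a lowest of -0.20. The protein-coding 9530077C05Rik, at chr9:22296755-22302209, had 90.6 and 93.3 CPM in knockdown, 68.1 and 70.7 CPM in control and 52.6 CPM in the negative control, a rise of 0.40 ± 0.06 (adjusted p = 3.4e-07), and its nearest named peak, at the cytokinesis gene Anln, was 17821 bp away.

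The largest called fall at a mean of at least 5 CPM was at 2900060B14Rik, at chr1:118406752-118408304. It had 4.18 and 3.99 CPM in knockdown, 8.18 and 7.68 CPM in control and 18.8 CPM in the negative control. The groups did not overlap, and all 4 H3K4 libraries lay below the negative control. The peak fell by 0.81 on the log2 scale (SE 0.17, adjusted p = 0.00082 in limma).

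Gm35750, at chr2:163204077-163207736, had 12.4 and 9.53 CPM in knockdown, 20.4 and 18.2 CPM in control and 32.0 CPM in the negative control. It fell by 0.77 on the log2 scale (SE 0.12, adjusted p = 3.4e-07 in limma). A peak of Jph2, the junctophilin that holds the junctions between the cardiomyocyte's surface membrane and its calcium store, lay 10682 bp away and fell by 0.62 (adjusted p = 0.0097). The strongest Jph2 peak had 304 and 298 CPM in knockdown and 295 and 301 CPM in control, a difference of 0.02 ± 0.04 that did not pass in limma (adjusted p = 0.88).

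Gm46509 lay 87094 bp from its nearest named peak, at Asap1. It had 5.40 and 6.44 CPM in knockdown, 10.6 and 10.2 CPM in control and 22.7 CPM in the negative control. Gm46509 fell by 0.72 on the log2 scale (SE 0.15, adjusted p = 0.00076 in limma). Single peaks of Gm32709, Gm36482, 1700054O19Rik, Gm30048, Gm31391, 2310067E19Rik and 1700086D15Rik fell by 0.75, 0.74, 0.71, 0.71, 0.69, 0.68 and 0.67, at mean levels of 5.04 to 7.44 CPM. Of the 13 wide peaks of 2310067E19Rik 1 was called lower, and their median difference was -0.25. The strongest peak of Nfib, the gene beside them, rose by 0.19 (adjusted p = 3.5e-06 in limma). Of the 5 wide peaks of Gm32709 3 were called lower, and the highest difference was 0.11. Gm30048 lay 116 bp from a peak of the formin gene Inf2, which differed by -0.07 (adjusted p = 0.55), and Gm31391 lay 327 bp from a peak of the Wnt-pathway transcription factor gene Tcf7l1, which differed by -0.15 (adjusted p = 0.89). Every one of these 10 falling peaks was below the negative control in all 4 H3K4 libraries. Gm5105, among the 5 widest peaks, at chr3:137769130-137782831 was 13701 bp wide and high, with 239.8 and 234 CPM in knockdown, 274 and 284 CPM in control and 153 CPM in the negative control, and fell by 0.23 (SE 0.04, adjusted p = 1.1e-05), a difference of 0.00 under median centring.

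**Figure D4:**
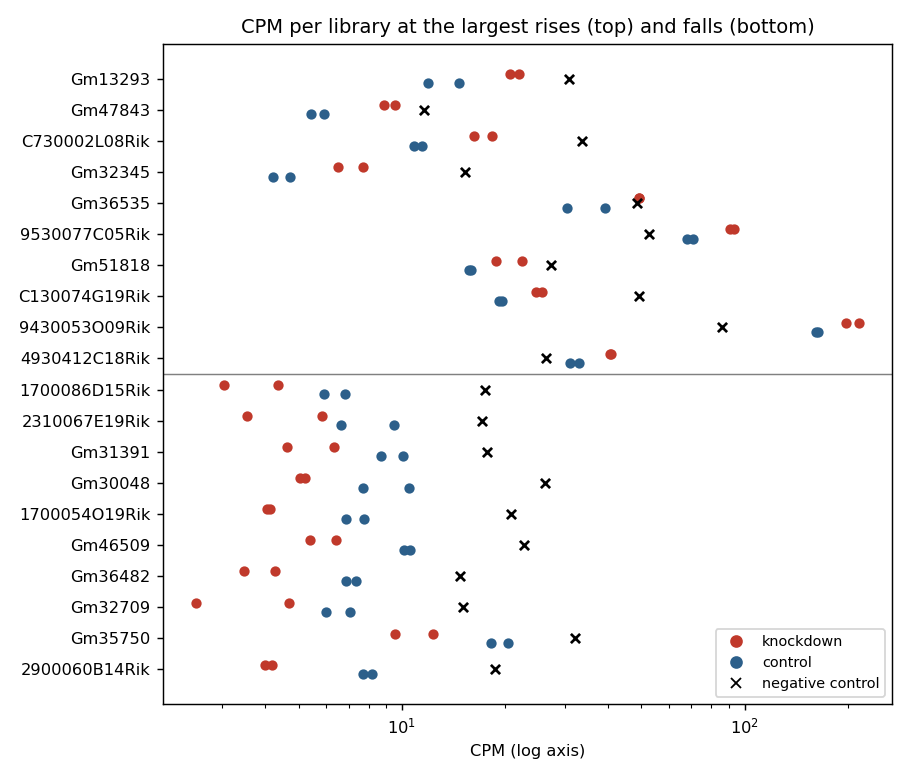
CPM in each library, on a log axis, at the 10 largest called rises (above the line) and the 10 largest called falls (below it) with a mean of at least 5 CPM. Red points are the 2 knockdown libraries, blue the 2 control libraries and crosses the negative control. At each of the 10 falls the cross lies right of every H3K4 library, while at 9430053O09Rik (216 and 198 CPM in knockdown) it lies left of all 4.

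The nearest peak of a named gene was within 5 kb of 448 Gm and Rik peaks (13.9%, against 11.7% of other wide peaks), at 418 named genes. Within 1 kb the count was 136 (4.23%, against 3.06%) and within 10 kb 772 (24%, against 22%). Taken over all widths, Gm and Rik peaks near a named peak were stronger. Those within 1 kb had median levels of 37.2 CPM in knockdown and 35.5 CPM in control, and 29.4% and 27.2% of them lay 2-fold or more above the negative control. Those over 50 kb away had medians of 7.94 and 8.53 CPM and shares of 3.84% and 3.43%. Peaks within 1 kb were also wider, and at 2 to under 5 kb the shares were 29.7% and 28.1% within 1 kb and 7.14% and 6.72% over 50 kb. At 1 to under 2 kb, which holds most of the peaks, the levels did not follow the gap in this way, with medians of 5.05 CPM in knockdown and 6.33 CPM in control within 1 kb (41 peaks) and 5.93 and 6.63 CPM over 50 kb (715 peaks).

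Where a Gm or Rik peak was strong, the named peak beside it mostly had the low level usual for all peaks. At 71 of the 448 pairs the Gm or Rik peak lay 2-fold or more above the negative control over the 4 H3K4 libraries. Their medians were 112 CPM in knockdown and 107 CPM in control, whereas the named peaks beside them had medians of 1.08 and 1.48 CPM and a median width of 374 bp. Over all 85275 peaks the medians were 1.10 and 1.46 CPM and 370 bp, close to those of these neighbours. The named peaks beside all 448 Gm and Rik peaks were wider and stronger, with medians of 4.24 and 5.61 CPM and 1218.5 bp. Under 1000 bp wide were 57 of the 71 named peaks and 209 of the 448. CPM was not scaled to width, and the neighbours of other strong wide peaks are not given here. The Gm or Rik peak was the stronger of the pair in 69 of the 71. Both peaks exceeded 2-fold in 2 of the 448 pairs, the Gm or Rik peak alone in 69, the named peak alone in 61 and neither in 316.

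The named gene's strongest peak anywhere in the table was then also looked up. It lay 2-fold or more above the negative control for 4 of these 71 pairs and below that for 67, and beside all 448 it did so for 117, while 21.1% of all 15615 named genes with a peak had such a peak. It was under 1000 bp wide in 35 of the 71, against 25% of all named genes with a peak. Beside 173 Gm or Rik peaks 2-fold or more below the negative control, the named gene's strongest peak exceeded 2-fold in 57. For Irs2, beside 9530052E02Rik, the strongest peak was 459 bp wide with 2.49 and 1.71 CPM in knockdown, 1.92 and 1.37 CPM in control and 6.87 CPM in the negative control. For Anp32a, beside Gm20346, it was 274 bp wide with 1.08 and 0.676 CPM in knockdown, 1.82 and 1.79 CPM in control and 5.28 CPM in the negative control. Arid2, a subunit gene of a SWI/SNF chromatin remodelling complex, was 2144 bp from Gm38469, which had 253 and 259.8 CPM in knockdown, 232 and 243 CPM in control and 100.1 CPM in the negative control, while the strongest Arid2 peak had 4.98 and 1.93 CPM, 3.26 and 2.11 CPM and 10.3 CPM in the same order. The table gives each peak 1 symbol, and the rule behind it is not given in the sources used here.

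Neighbouring peaks showed little common movement. Of the 448 pairs 389 were tested on both sides, and their differences had the same sign in 220 (56.6%). The correlation of the 2 differences across these pairs was 0.12 (Pearson) and 0.12 (Spearman), as a description over pairs that share all 4 libraries. The named peaks of the 448 pairs had medians of only 4.24 CPM in knockdown and 5.61 CPM in control. Weak peaks have large SEs, such as 0.27 at the Irs2 peak and 0.32 at the Tns1 peak. These values therefore cannot show whether the pairs moved together. Both peaks were called higher in 1 pair and lower in 2, and no pair held opposite calls. Of the Gm or Rik peaks in these pairs 10 (2.57%) were called higher and 21 (5.40%) lower, and of the named peaks 20 (5.14%) and 15 (3.86%), beside 1.33% and 1.63% of all tested peaks.

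RefSeq starts gave a second view of shared promoters. Of the 2198 peaks whose symbol has a RefSeq start, 145 (6.6%) were at genes that start within 1 kb head to head with a named gene, against 7.33% of other wide peaks. They covered 122 symbols and 122 partner genes, with a median of 114 bp between starts. Among peaks of 2 to under 5 kb, those with a head-to-head partner lay 2-fold or more above the negative control in 31.4% in knockdown and 30.0% in control, and those without one in 13.4% and 11.6%. At 5 kb or more the shares were 42.9% and 50% for 14 peaks with a partner and 46.3% and 44.2% for 95 without, so knockdown went the other way. At 1 to under 2 kb none of 61 peaks with a partner did so.

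For 35 of the 122 partner genes no peak of the table used here carries the symbol or a RefSeq synonym. That is 28.7%, beside 28.3% of the 16247 named RefSeq genes with a start. The 46 Gm and Rik peaks at these pairs had median levels of 38.0 CPM in knockdown and 37.6 CPM in control. The 40 whose partner had a peak within 5 kb had 24.2 and 23.4 CPM, and the remaining 59 had 8.84 and 9.46 CPM. Median widths were 2441, 2344 and 1728 bp in the same order, and CPM was not scaled to width. In these 59 the partner's nearest peak was farther, or the partner was found only by a synonym and its distance was not measured.

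**Figure D5:**
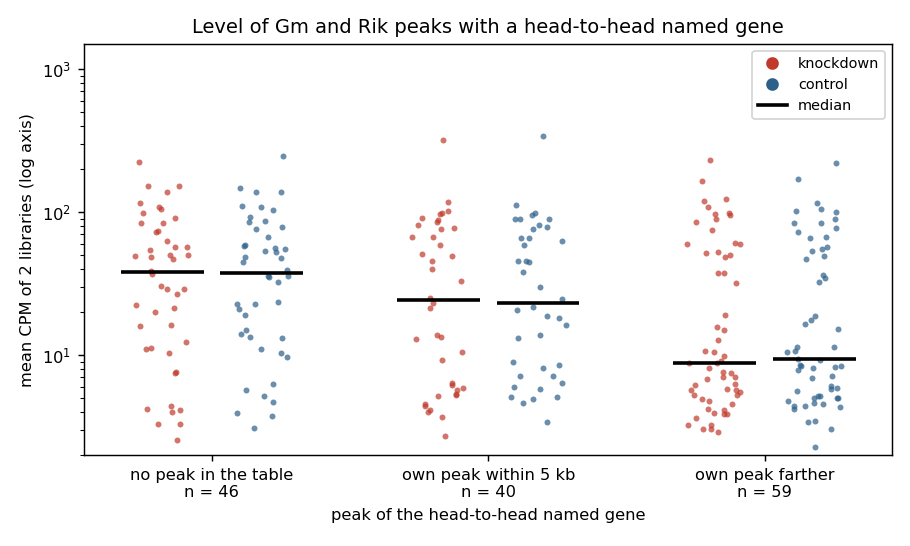
Mean CPM of the 2 libraries of each group (log axis) at 145 Gm and Rik peaks whose gene starts head to head with a named gene, split by whether the partner has a peak with its own symbol. Each point is 1 peak, red for knockdown and blue for control, and bars are medians, 38.0 and 37.6 CPM at left, 24.2 and 23.4 CPM in the middle and 8.84 and 9.46 CPM at right. The right class also holds peaks whose partner was found only by a synonym, at a distance not measured. Median peak widths are 2441, 2344 and 1728 bp from left to right.

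Gm17501 is the strongest of the pairs without a partner peak. Its partner Ccn1 encodes a secreted matricellular protein. The peak, at chr3:145350969-145361427, had 223 and 229 CPM in knockdown, 252 and 246 CPM in control and 117 CPM in the negative control, and both knockdown libraries lay below both control libraries. It fell by 0.14 on the log2 scale (SE 0.04, adjusted p = 0.036 in limma), with 0.10 under median centring and 0.08 in DESeq2 in place of the fall.

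Gm35986, paired with the fatty acid elongase gene Elovl6, had 149 and 155 CPM in knockdown, 145 and 148 CPM in control and 51.5 CPM in the negative control. 4933427D14Rik, paired with Txndc17, a thioredoxin-domain gene, had 147 and 159.6 CPM in knockdown, 136 and 141 CPM in control and 51.5 CPM in the negative control. Knockdown lay above control at both, and neither passed in limma (adjusted p of 0.61 and 0.087). Gm39269, paired with Zfpm1, which encodes a GATA cofactor, had 131 and 145 CPM in knockdown, 132 and 143 CPM in control and 67.1 CPM in the negative control. Gm46280, paired with the chaperone gene Canx, had 116 and 116 CPM in knockdown, 112 and 106 CPM in control and 65.3 CPM in the negative control, with an adjusted p of 0.38. The groups overlapped at Gm39269.

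Of the 145 head-to-head peaks 4 (2.76%) were called higher and 10 (6.90%) lower, beside 1.33% and 1.63% of all tested peaks and 4.18% and 3.68% of other wide peaks. The 4 higher were Gm39302 with Slc44a2 (0.22), 9930104L06Rik with the mitotic gene Cdca8 (0.21), A430105J06Rik with the ribosomal processing gene Rrp15 (0.20) and Gm45935 with Cab39l (0.20), all log2 differences. They were named after their values were seen, as were the lower ones that follow. Gm26564, 14 bp from the start of Tspyl4, had 72.4 and 73.9 CPM in knockdown, 84.7 and 90.3 CPM in control and 52.8 CPM in the negative control, and fell by 0.25 (SE 0.06, adjusted p = 0.0050 in limma). Gm33937, which starts 38 bp from the phosphatase gene Ppm1e, has 4 wide peaks, and the one at chr11:87197063-87201680 had 52.9 and 53.3 CPM in knockdown, 68.0 and 65.7 CPM in control and 48.1 CPM in the negative control, and fell by 0.33 (SE 0.07, adjusted p = 0.00069 in limma). Its strongest peak, at chr11:87248105-87250468, had 75.6 and 74.5 CPM in knockdown and 67.7 and 77.0 CPM in control, which overlapped, with a difference of 0.05 (adjusted p = 0.70). Lower peaks below the negative control included Gm31862 with the clock repressor gene Nr1d1 (-0.42), Gm32391 with the sodium pump subunit gene Atp1b1 (-0.46) and Gm12348 with the junction gene Jup (-0.52).

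Of 12 symbols listed whatever their values, 3 held wide peaks. 1810058I24Rik had a strong peak with 97.8 and 95.05 CPM in knockdown, 111 and 107 CPM in control and 60.8 CPM in the negative control, and its difference of -0.18 did not pass in limma (adjusted p = 0.058) and turned to 0.06 with median centring. A weak second peak of it, with 2.77 and 2.54 CPM in knockdown, 4.60 and 5.74 CPM in control and 13.2 CPM in the negative control, fell by 0.75 (SE 0.21, adjusted p = 0.018). Neither 2610307P16Rik nor 1500009L16Rik had a peak that passed.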

How the data were processed

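The CUT&RUN data were 1 table of CPM values per peak for 5 libraries, 2 of knockdown, 2 of control and 1 negative control. Per the submitters' processing notes Trim Galore was used and the build was GRCm39; not given in the sources used here are the aligner, peak caller and rule that assigns a symbol to a peak. The CPM values deposited by the authors were whole multiples of 1 read per column for 100% of values (tolerance 1e-06), so they are reads scaled to the total in peaks, and a fixed total ties every peak to all others. All 5 value columns were used, 0 were left out, and 2 emptied lines of the table stayed in the totals. Column numbers could not be matched to sample titles, so columns were mapped to groups.

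The test covered the 58072 peaks that reached 1 CPM in 2 or more of the 4 H3K4 libraries, on log2(CPM + 1) with limma 3.58.1 (R 4.3.3; linear model with an intensity trend, 2-sided), p-values adjusted by Benjamini-Hochberg across the tested peaks, called under 0.05. Fold changes are on that scale and understate low peaks. SEs come from that fit, whose spread is shared among peaks of like level, and an exact permutation test of 2 against 2 libraries cannot go below 0.33. The scripts were tested on simulated data. Ratios to the negative control used means of CPM + 1 with no test. The floor of 3 reads covers counting error only.

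A named gene is any symbol that is not Gm, Rik, LOC or a clone name, and gaps run edge to edge. Gene types, synonyms, starts and sequences are RefSeq's (GRCm38.p6), matched by symbol for 3204 peaks and not for 14, and were not joined to peak positions. The peaks named are, by a fixed rule, the 10 strongest, the 10 highest and 10 lowest ratios, the 10 largest called rises and falls at a mean of at least 5 CPM with groups apart, the 10 strongest within 5 kb of a named peak, the 10 strongest head to head, the extremes of width and of peaks per symbol, and 12 listed symbols. The peaks, rules and lists were chosen with earlier results of these data known. Alternatives were other scalings, filters, pseudocounts, thresholds, widths and gaps, a replicate block, each library left out, and edgeR 4.0.16 and DESeq2 1.42.0 on the recovered reads.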

Additional observations from a re-analysis of the deposited data

How the results depend on the processing

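The counts of called Gm and Rik peaks, 51 higher and 156 lower, depended most on scaling and on the model of spread. Counts higher and lower were 5 and 2 with TMM scaling, 3 and 0 with median centring, 47 and 97 with quantile normalization, 44 and 103 with cyclic loess, 41 and 114 with edgeR, and 5 and 0 with DESeq2, which gave no adjusted p for 39406 peaks and had 306 Gm and Rik peaks at an unadjusted p under 0.05 (340 with median centring). limma without a trend called 0 and 0, with 319 at an unadjusted p under 0.05. At an adjusted p of 0.01 the counts were 20 and 55, at 0.1 they were 76 and 255, among 212 peaks 2-fold above the negative control alone 29 and 3, and at 2000 bp or more 47 and 86. Leaving out 1 library gave 10 to 23 higher and 25 to 83 lower: 23 and 82 without knockdown library 3, 10 and 25 without knockdown library 4, 15 and 32 without control library 3, and 17 and 83 without control library 4. The lone library was then assumed to vary like the other group.

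The median log2 difference of -0.10 became -0.0043 with TMM, -0.0069 with quantile normalization, 0.14 with median centring, -0.0097 with cyclic loess, 0.10 with DESeq2, 0.0744 among peaks 2-fold above the negative control, -0.15 at 500 bp or more and -0.0235 at 2000 bp or more, and stayed between -0.13 and -0.07 without any 1 library. The median of all tested peaks, -0.14, moved to -0.07 with TMM, 0.00 with quantile normalization, 0.10 with median centring, 0.01 with cyclic loess and 0.01 with DESeq2, so a fall smaller than these shifts has no fixed sign. Of the named peaks that were called, the sign turned at Gm5105 (0.0045 with median centring), Gm39664 (0.11 with median centring, 0.0895 with DESeq2), 2900089D17Rik (0.10 and 0.0821) and Gm17501 (0.10 and 0.0793). Of the values of single named peaks under all alternatives, 978 stayed on their side of the threshold, 193 lost the call, 23 gained it and 7 were called values that turned in sign. Within the 978, 72 values turned in sign without being called, among them Gm20652 (0.16), 9530052E02Rik (0.16) and the strong 1810058I24Rik peak (0.06) with median centring. The cause was not tested.

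The libraries' numbers are not stated to mark a shared culture, and deviations of same-numbered libraries correlated at 0.12 over 58072 peaks with 2 pairs. With a replicate block the counts were 105 higher and 318 lower.

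Peaks 2-fold or more above the negative control numbered 226 in knockdown and 199 in control. They were 437 and 424 at 1.5-fold and 0 and 0 at 4-fold, and 216 to 240 and 188 to 205 with 1 library of the group left out. Peaks within 5 kb of a named peak, 448, were 136 at 1 kb, 772 at 10 kb, 283 with named peaks of 1000 bp or more, 718 for widths of 500 bp or more and 253 for 2000 bp or more. The remaining limit is depth: 1 read is worth 0.264 CPM in the only negative control library, so ratios at low peaks rest on few reads.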
